A study of Mus musculus with 6 samples.

Results

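Macrophages and the other myeloid cells of the kidney cortex were followed through 34 genes that mark or serve them, among the 37325 gene names on the array. The genes were taken by name from a fixed list of 35 symbols, in which Emr1 and Adgre1 are the same gene, and each was read by its brightest probe. They had 59 probes between them, and 31 of the 34 passed the filter, under which either genotype had to have all 3 of its arrays well above background. Those 31 were well above background on all 6 arrays. Spi1, Cd163 and Msr1 were not well above background on any array and have no measured difference.

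RNA from the kidney cortex of male C57BL/6 mice was hybridised to 6 arrays (Agilent, 1 colour). Wild-type (WT) mice gave 3, and mice without the receptor of the complement fragment C3a (C3aR-/-) gave the other 3. Both groups were non-diabetic controls: 8 weeks old at the start, fed chow in which fat gave 10% of calories, injected with vehicle where the diabetic arm received streptozotocin, and killed 20 weeks after induction. Diabetic mice were not analysed here. The labels do not say that each array was a separate animal, and the p-values then reflect the spread among these samples only, which may be technical. The 3 WT arrays lay on 1 slide and the 3 C3aR-/- arrays on another, so slide and genotype cannot be told apart. The single probe of the deleted gene, C3ar1, was well above background on 1 of 6 arrays and differed by -0.11 (WT -5.60 ± 0.57, C3aR-/- -5.71 ± 0.30, SD, n = 3 each; two-sided exact permutation test, p = 0.9, and 0.1 is the smallest p it can give), so it gives no check of the labels.

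Resident macrophages lie between the tubules of the kidney, where they clear debris and immune complexes, and monocytes and neutrophils enter from the blood in injury. They depend on the growth factors CSF1 and IL-34, which act on the receptor encoded by Csf1r, and on the transcription factors PU.1 (Spi1) and IRF8. Their activating Fc receptors and TREM2 signal through the adaptors encoded by Fcer1g and Tyrobp, whose ITAM motifs recruit the kinase SYK. In these arrays 12 of 12 proximal tubule markers and 7 of 7 podocyte markers passed the filter. So did 11 of 12 T cell markers, 10 of 10 fibroblast and mural cell markers, and 20554 of the 37325 gene names. Passing the filter therefore gives no check of the tissue label.

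Levels are the log2 signal minus that of each array's 75th percentile, so a level of 0 equals that percentile and a difference of 1 is a doubling. Differences are C3aR-/- minus WT, and adjusted p-values are from limma with Benjamini-Hochberg adjustment over all 20554 genes tested, with a threshold of 0.05. Of the 31 genes, Cd68 and Ly6g fell and Cd14 passed with a higher value by 1 of its probes. These 3 compare with 14.4% of all genes called, 7.07% higher and 7.3% lower (with median scaling 8.9% higher and 5.15% lower), so the number of myeloid genes called was not above the background. The differences of the other 28 lay between -0.95 and 0.27 with adjusted p-values of 0.0516 to 0.997. Of the 31, 26 had a negative difference (16 without C3aR-/- replicate 1), with a median of -0.14 against 0.02 over all genes tested. That median was -0.29 without C3aR-/- replicate 2, -0.07 without replicate 1 and -0.07 without replicate 3. For a gene that read lower, whole cortex cannot tell fewer myeloid cells from less RNA per cell, and slide cannot be told apart from genotype.

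**Figure D1:**
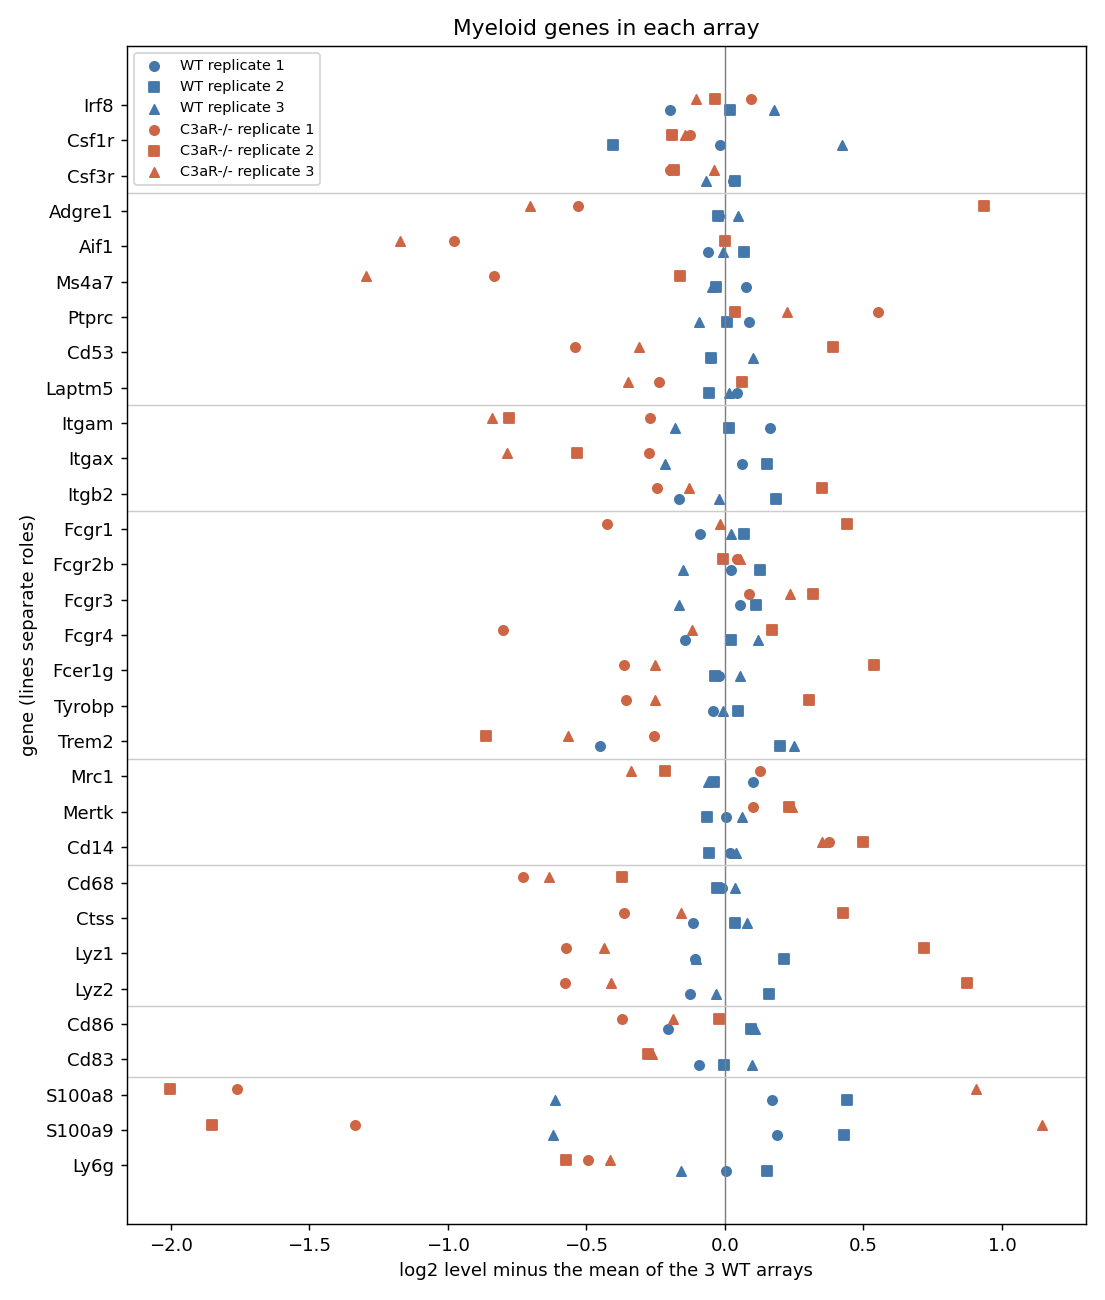
Level of each of the 31 myeloid genes in each array, as log2 level minus the mean of the 3 WT arrays, with WT in blue, C3aR-/- in orange and 1 marker shape per replicate number. The WT arrays lie close together for most genes, while the C3aR-/- arrays spread, with replicate 2 (squares) at the right for Adgre1, Lyz1, Lyz2, Fcer1g and Tyrobp and replicate 3 (triangles) at the right for S100a8 and S100a9.

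The sequences below are from probes behind the main readings. Each is a stretch of 30 bases of a 60-base probe, with capitals for bases shared in 1 run with the probe of another gene on the array. The Cd68 stretches, the brightest probe (chr11:69477805-69477834, mm9, minus strand) and a second one upstream (chr11:69478344-69478373, minus strand), share no run of 20 bases with any other gene's probe, and the same holds for Adgre1 (chr17:57622843-57622872, plus strand). Of the 31 genes, 3 were read by a probe that does share such a run: Itgam (chr7:135261755-135261784, plus strand), Csf3r (chr4:125721508-125721537, plus strand) and Ly6g (chr15:74989053-74989082, plus strand).
Cd68, brightest probe: gcctcatctcttcaccatgccactgactca
Cd68, second probe: ttgggccaaagcttctgctgtggaaatgca
Adgre1, brightest probe: ttgtgtttcctatgcactttcttgtggtgt
Itgam, brightest probe: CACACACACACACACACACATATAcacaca
Csf3r: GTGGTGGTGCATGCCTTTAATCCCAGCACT
Ly6g: taCTGTTGCAAGGAAGACCTCTGCAATGCA

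The Itgam stretch is a CA repeat, and runs of 20 or more of its bases occur in probes of 29 other genes. The Csf3r probe shared a run of 30 bases with 1 of 2 other entries, and the Ly6g probe a run of 28 bases with 1 other transcript. Whether RNA of those other genes reached these 3 probes was not tested. Only probes on the array were compared, so runs shared with other RNA were not searched for.

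Lineage factors and growth factor receptors came first among the roles, and none of the 3 measured passed. Csf1r, the receptor on which macrophage survival depends, stood at 3.03, 2.65 and 3.47 in WT replicates 1 to 3 and at 2.93, 2.86 and 2.91 in C3aR-/- replicates 1 to 3. The C3aR-/- arrays lay inside the wider WT range, and the difference was -0.15 (SE 0.20, adjusted p = 0.623), turning to 0.06 without WT replicate 3. A second Csf1r probe read otherwise, at -1.14, -1.27 and -1.38 in WT and -1.91, -1.96 and -1.97 in C3aR-/- arrays. On that probe the genotypes did not overlap, with a difference of -0.68 (SE 0.08, adjusted p = 0.0105 over all probes in limma), so the 2 probes of Csf1r share a sign but not a call. Csf3r, the receptor of the neutrophil growth factor G-CSF, read 5.31, 5.32 and 5.22 in WT and 5.08, 5.10 and 5.24 in C3aR-/- arrays. These levels come from the probe that shares a run of 30 bases with another entry, and may not be those of Csf3r alone. Replicate 3 of C3aR-/- lay within the WT range, and the difference was -0.14 (SE 0.07, adjusted p = 0.222). Irf8, the interferon regulatory factor of monocytes and dendritic cells, was at -0.01 (adjusted p = 0.943) by its brightest probe and at 0.77 (SE 0.13, adjusted p = 0.0240 over all probes) by a dimmer probe to a transcript with only an Ensembl entry, so no direction is given for it. Spi1, which encodes PU.1, was not well above background, with processed signals of 3.58 to 19.3.

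Of 6 surface and cytoplasmic identity markers none passed, and their C3aR-/- arrays disagreed with each other. Adgre1 encodes F4/80, a widely used surface marker of mouse macrophages. It stood at -0.84, -0.84 and -0.77 in the WT arrays and at -1.35, 0.12 and -1.52 in the C3aR-/- arrays. C3aR-/- replicates 1 and 3 were below every WT array and replicate 2 above them, at 0.692, 0.614 and 1.91 times the WT mean. The mean difference was therefore small, at -0.10 (SE 0.43, adjusted p = 0.890). It was -0.62 (adjusted p = 0.0314) without replicate 2, 0.12 without replicate 1 and 0.20 without replicate 3.

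Aif1, the calcium-binding protein IBA1 of macrophages, read -0.81, -0.68 and -0.76 in WT and -1.73, -0.75 and -1.92 in C3aR-/- arrays. Replicates 1 and 3 were low again and replicate 2 lay within the WT range, so the difference of -0.72 (SE 0.30) had an adjusted p of 0.158. Ms4a7, a membrane protein of macrophages, read -0.94, -1.05 and -1.07 in WT and -1.85, -1.18 and -2.31 in C3aR-/- arrays. All 3 C3aR-/- arrays were below all WT arrays, replicate 2 by the smallest margin, and the difference was -0.76 (SE 0.28, adjusted p = 0.116). Without C3aR-/- replicate 2, Aif1 was at -1.08 (adjusted p = 0.0152) and Ms4a7 at -1.06 (adjusted p = 0.0338). Without replicate 1 they were at -0.59 and -0.73 (adjusted p = 0.3155 and 0.2212). Without replicate 3 they were at -0.49 and -0.50 (adjusted p = 0.3377 and 0.2109). The second Ms4a7 probe was at -0.50 (adjusted p = 0.480), with replicate 2 above and replicates 1 and 3 below the WT range.

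Ptprc encodes CD45, the phosphatase on all leukocytes. Its brightest probe, to an Ensembl-only transcript, read 0.35, 0.28 and 0.17 in WT and 0.82, 0.31 and 0.49 in C3aR-/- arrays, a difference of 0.27 (SE 0.14, adjusted p = 0.229). The probes to the RefSeq transcript of Ptprc went the other way, at -0.41 and -0.19 (adjusted p = 0.0928 and 0.396 over all probes), so CD45 has no direction here. The better lit of those read -0.14, -0.18 and -0.10 in WT and -0.43, -0.02 and -0.55 in C3aR-/- arrays, with replicate 2 again the highest. Laptm5, a lysosomal protein of blood cells, read -1.20, -1.30 and -1.23 in WT and -1.48, -1.18 and -1.59 in C3aR-/- arrays, a difference of -0.17 (SE 0.12, adjusted p = 0.333). The tetraspanin gene Cd53 was also highest in C3aR-/- replicate 2, at -4.76, -3.83 and -4.53 against -4.27 to -4.12 in WT.

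The beta-2 integrins bind complement fragments and adhesion molecules. Itgam, which encodes the alpha chain CD11b, read 2.67, 2.53 and 2.33 in WT and 2.24, 1.73 and 1.67 in C3aR-/- arrays, by the probe with the CA repeat. The genotypes did not overlap, and the difference of -0.63 (SE 0.18) had an adjusted p of 0.0647. It was -0.81 (adjusted p = 0.0268) without C3aR-/- replicate 1, -0.56 (adjusted p = 0.1545) without replicate 2 and -0.52 (adjusted p = 0.1658) without replicate 3. The other Itgam probe was well above background on 1 C3aR-/- array alone and offers no second reading. Itgax, which encodes the alpha chain CD11c, read -1.31, -1.22 and -1.59 in WT and -1.65, -1.91 and -2.16 in C3aR-/- arrays. It did not overlap either, and its difference of -0.53 (SE 0.16) had an adjusted p of 0.0770. Itgb2, the beta chain that pairs with both, was at -0.01 (SE 0.18), with replicate 2 above and replicate 1 below the WT range. Both alpha chains passed with normexp background correction, at -0.64 for Itgam (adjusted p = 0.0324) and -0.51 for Itgax (adjusted p = 0.0414).

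**Figure D2:**
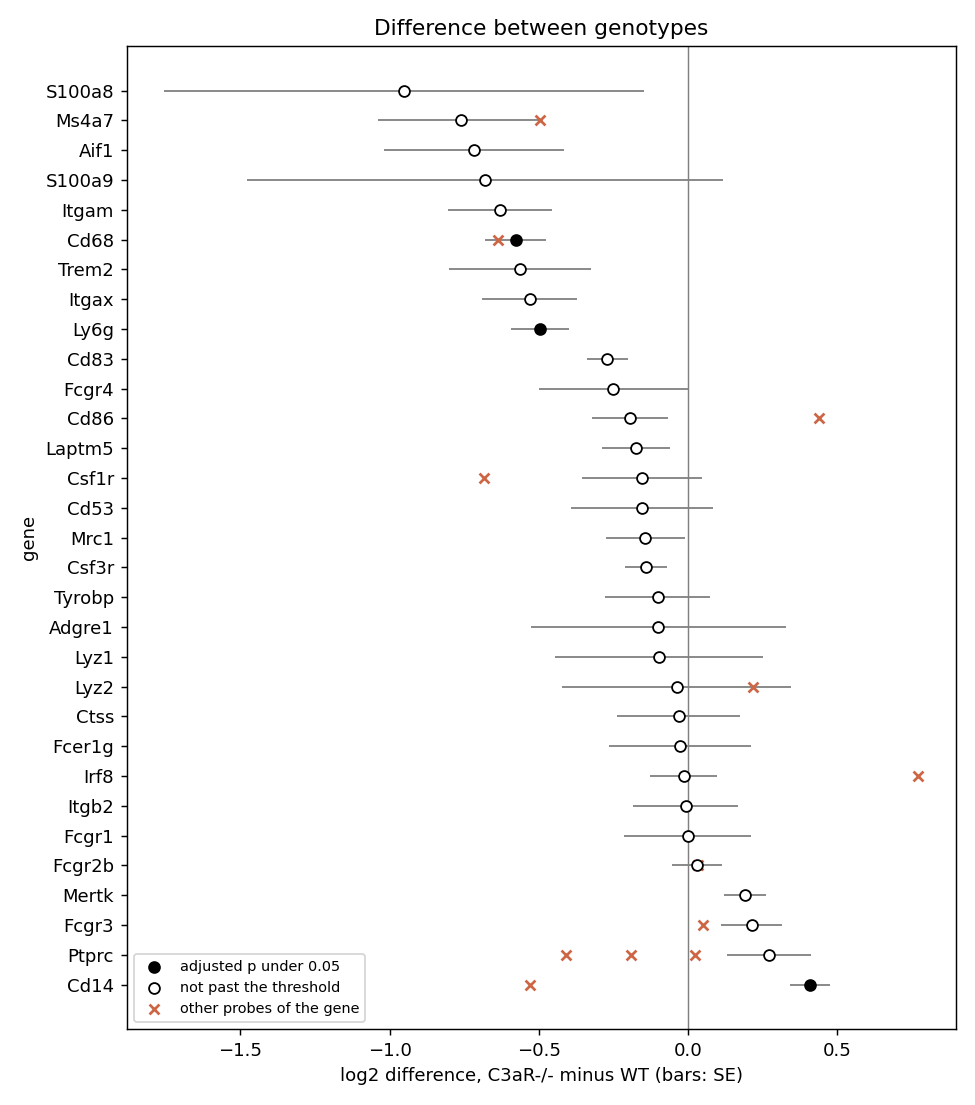
Log2 difference between genotypes (C3aR-/- minus WT) for the 31 myeloid genes, with the standard error as bars, filled points for an adjusted p under 0.05 and crosses for the other probes of a gene that passed the filter. Cd68, Ly6g and Cd14 are filled, and crosses lie on the other side of 0 for Cd14, Ptprc, Irf8, Cd86 and Lyz2. The Cd86 cross is a probe that passed the filter through C3aR-/- alone.

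Among 7 Fc receptors, TREM2 and their adaptors none passed, 5 had a negative difference and the median was -0.03. Trem2, a lipid receptor of tissue macrophages, read -4.39, -3.73 and -3.69 in WT and -4.19, -4.80 and -4.50 in C3aR-/- arrays. It overlapped through WT replicate 1, and its difference of -0.56 (SE 0.24) had an adjusted p of 0.160. Fcgr3, an activating receptor for IgG, read -1.03, -0.97 and -1.25 in WT and -0.995, -0.762 and -0.844 in C3aR-/- arrays, a difference of 0.21 (SE 0.10, adjusted p = 0.202). The inhibitory IgG receptor gene Fcgr2b was at 0.03 on both of its probes.

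Fcer1g, the shared signalling chain of the Fc receptors, read 0.70, 0.69 and 0.78 in WT and 0.36, 1.26 and 0.47 in C3aR-/- arrays. Tyrobp, which encodes the TREM2 partner DAP12, read 0.40, 0.49 and 0.44 in WT and 0.08, 0.75 and 0.19 in C3aR-/- arrays. In both adaptors replicate 2 of C3aR-/- was above and replicates 1 and 3 were below every WT array, and the differences were -0.03 and -0.10. The high-affinity IgG receptor gene Fcgr1 and Fcgr4 were likewise highest in replicate 2 and lowest in replicate 1, with differences of -0.0013 and -0.25 (SE 0.21 and 0.25).

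Of 5 scavenger, clearance and pattern receptors, 3 were measured. Cd14, which passes bacterial lipopolysaccharide to its receptor, read -1.19, -1.26 and -1.17 in WT and -0.83, -0.71 and -0.86 in C3aR-/- arrays, without overlap. The difference was 0.41 (SE 0.07, adjusted p = 0.0200). Its second probe stood at -0.80, -0.90 and -0.73 in WT and at -2.98, -0.53 and -0.51 in C3aR-/- arrays. That probe differed by -0.53 (SE 0.67, adjusted p = 0.619 over all probes) through the low value of replicate 1 alone, and Cd14 is left without a direction. The array of replicate 1 had 145 non-uniform spots against 2 to 8 on the others, but flagged spots were left out of all values. Whether spot quality had a part in that low value was not tested. Mertk, a receptor for apoptotic cells, read 0.78, 0.71 and 0.84 in WT and 0.88, 1.01 and 1.02 in C3aR-/- arrays. It did not overlap, but the difference of 0.19 (SE 0.07) had an adjusted p of 0.120. The mannose receptor gene Mrc1 was at -0.14 (SE 0.13). The haemoglobin receptor gene Cd163 and the scavenger receptor gene Msr1 gave processed signals of 3.82 to 8.23 and no measured level.

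Of the lysosomal and bactericidal proteins, Cd68 fell. This sialomucin of macrophage lysosomes read -0.45, -0.47 and -0.40 in WT and -1.17, -0.81 and -1.08 in C3aR-/- arrays. All C3aR-/- arrays were below all WT arrays, with replicate 2 the nearest, and the mean was 1.49-fold lower (difference -0.58, SE 0.10, adjusted p = 0.0230). The second probe gave a like size, at -0.64 (SE 0.19), and did not pass (adjusted p = 0.0838 over all probes). Over 14 other settings the difference lay between -0.68 and -0.46 with adjusted p-values of 0.0124 to 0.0782, and it was called in 8 of them. The call was lost without any 1 WT array or C3aR-/- replicate 3, with no filter on dim probes and with the replicate block.

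The other genes of this role split by array. Lyz2, the lysozyme of macrophages and neutrophils, read 2.61, 2.90 and 2.71 in WT and 2.16, 3.61 and 2.33 in C3aR-/- arrays, which put replicate 2 at 1.83 and the others at 0.671 and 0.752 times the WT mean. Its second probe kept that order, at -4.06, -2.36 and -3.89 against -3.79 to -3.44 in WT, although the mean differences of the 2 probes had opposite signs (-0.04 and 0.22). Lyz1, its neighbour copy on chromosome 10, moved by array in the same way at -1.11, 0.18 and -0.98 against -0.65 to -0.33 in WT. The longest run its probe shares with a Lyz2 probe is 8 bases. Ctss, the cathepsin that trims the invariant chain of MHC class II, read 2.19, 2.34 and 2.38 in WT and 1.94, 2.73 and 2.15 in C3aR-/- arrays.

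Both costimulatory genes were slightly lower and did not pass. Cd83, a marker of activated antigen-presenting cells, read -1.83, -1.75 and -1.64 in WT and -2.01, -2.02 and -2.002 in C3aR-/- arrays. The C3aR-/- arrays were nearly equal and below all WT arrays, at a difference of -0.27 (SE 0.07, adjusted p = 0.0516, or 0.0469 when all 6 arrays had to be well above background). Cd86, a ligand of CD28, read -3.58, -3.28 and -3.26 in WT and -3.75, -3.40 and -3.56 in C3aR-/- arrays, at -0.19 (SE 0.13, adjusted p = 0.335). A dimmer Cd86 probe, at 0.44, was well above background on 0 WT and 3 C3aR-/- arrays. It passed the filter through C3aR-/- alone, so it is not used as a second reading. Cd86 did not pass and is given no direction.

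The 3 neutrophil genes did not move together. Ly6g, the surface marker of mouse neutrophils, read 0.04, 0.19 and -0.12 in WT and -0.46, -0.54 and -0.38 in C3aR-/- arrays. It fell 1.41-fold without overlap (difference -0.49, SE 0.10, adjusted p = 0.0283), by the probe that shares 28 bases with another transcript, and was called in 7 of 14 other settings (adjusted p = 0.0188 to 0.0871). That call was lost without WT replicate 1 or 2 or any 1 C3aR-/- array, with no filter and with the replicate block. S100a8 and S100a9 encode the subunits of calprotectin, an abundant cytosolic protein of neutrophils. S100a8 read -2.73, -2.45 and -3.51 in WT and -4.66, -4.90 and -1.99 in C3aR-/- arrays. S100a9 read -0.50, -0.26 and -1.31 in WT and -2.02, -2.54 and 0.46 in C3aR-/- arrays. In both, replicates 1 and 2 of C3aR-/- were below every WT array and replicate 3 above them, an order unlike that of Adgre1 and Lyz2. The differences of -0.95 and -0.68 (SE 0.80 each) did not pass (adjusted p = 0.445 and 0.585). Without C3aR-/- replicate 3 they were -1.88 and -1.59 (adjusted p = 0.0545 and 0.0769), and without replicate 2 they were -0.43 and -0.09 (adjusted p = 0.762 and 0.948).

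For these genes the C3aR-/- arrays spread more widely than the WT arrays. The median SD over the 31 genes was 0.103 between WT arrays and 0.303 between C3aR-/- arrays, where all genes had 0.105 and 0.107. The SD was larger in C3aR-/- for 23 of 31 genes (74.2%), against 48.9% of all genes. Relative to the WT mean, the median of the 31 genes was -0.36, -0.00037 and -0.25 in C3aR-/- replicates 1, 2 and 3, where all genes were at 0.03, 0.02 and 0.01. Replicate 1 was below the WT range for 22 of the 31 (71%) and above it for 4 (12.9%). Replicate 2 was below for 11 (35.5%) and above for 14 (45.2%), and replicate 3 below for 17 (54.8%) and above for 6 (19.4%). Of all genes, 31.9%, 32.5% and 33.4% were below that range in replicates 1, 2 and 3, and 39.2%, 35.6% and 35.2% above it. Replicate 2 thus lay nearest to the shares of all genes.

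Replicate 2 was the highest C3aR-/- array for 17 of 31 genes (54.8%), against 30.4% of all genes. For 8 of them, Adgre1, Cd53, Ctss, Fcer1g, Laptm5, Lyz1, Lyz2 and Tyrobp, replicates 1 and 3 were below and replicate 2 above the whole WT range (25.8%), an order found in 191 of all genes (0.929%). This order was singled out after the values were seen and carries no test. The count was 8 with quantile normalisation and in the deposited log2 table, 7 with median scaling and 6 with normexp. Of 12 second probes that passed the filter, 7 were highest in replicate 2, several of them probes of Ptprc, and 3 had the whole order. Among the 8 genes only Lyz2 had a second probe that passed. The 12 include the Cd86 probe that passed through C3aR-/- alone. In replicate 2, 59.3% of spots were well above background, against 56.5% to 58% on the other arrays. What part array quality or the sampling of tissue had in the spread was not tested.

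Genes of 2 pathways linked to these receptors were also highest in that array. All 6 genes of the phagocyte NADPH oxidase, which makes superoxide, were highest in C3aR-/- replicate 2 and above the WT range there. None passed, and Cybb, its membrane subunit, was at -0.33 (SE 0.25, adjusted p = 0.390). Among all genes, replicate 2 was the highest C3aR-/- array for 30.4% and above the WT range for 35.6%. Of 15 tested genes of ITAM signalling, 14 were highest in replicate 2 and 0 passed (1 higher and 1 lower before adjustment at 0.05), with the kinase gene Lyn at -0.22 (adjusted p = 0.0745). Median deviations from WT in replicates 1, 2 and 3 were -0.16, 0.24 and -0.23 for the oxidase and -0.03, 0.26 and -0.10 for ITAM signalling.

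**Figure D3:**
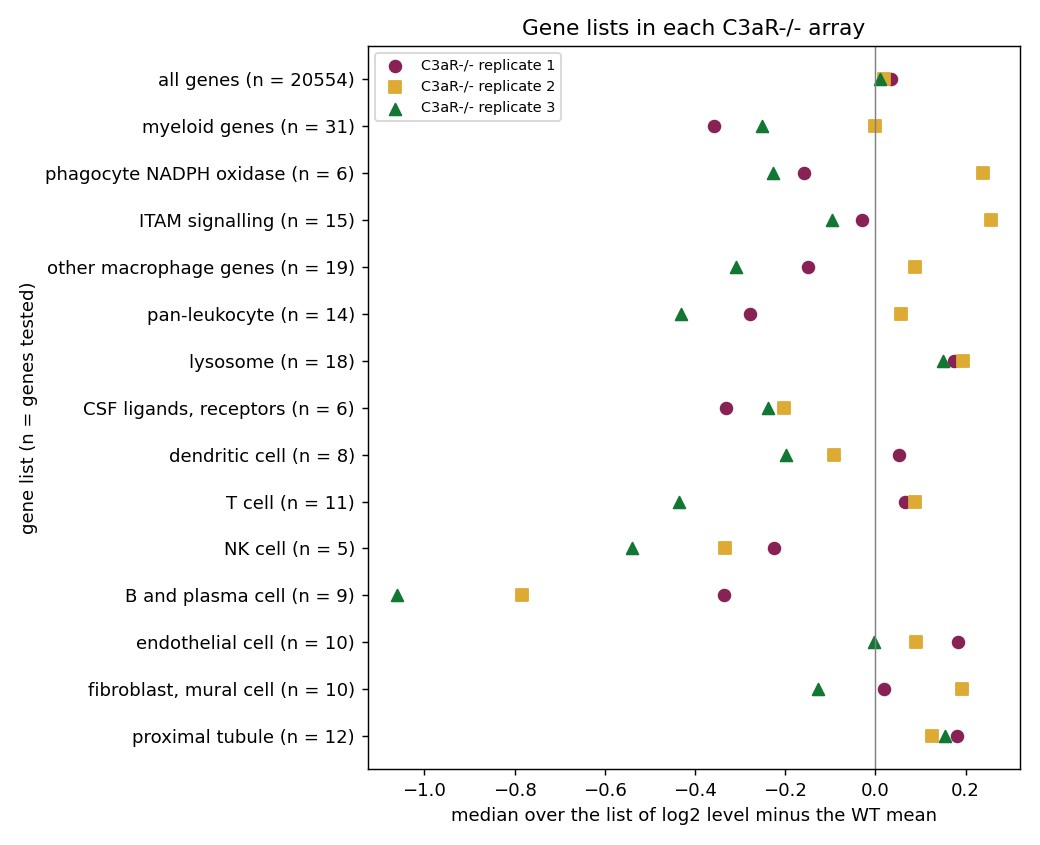
Median over each gene list of the log2 level minus the WT mean, in each C3aR-/- array, with the number of genes tested in brackets. The 31 myeloid genes lie at -0.36, -0.00037 and -0.25 in replicates 1, 2 and 3, the oxidase and ITAM lists are highest in replicate 2, and all genes together stay near 0.

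Of 19 other macrophage genes tested, 3 rose, 1 was called lower and 15 did not pass, and the median was -0.17. The gene called lower was Cd5l, a protein secreted by tissue macrophages, which was well above background on 3 WT and 0 C3aR-/- arrays. It passed the filter through WT alone, and its call rests on C3aR-/- values below the floor, so it is not read as a test. The WT mean of Cd5l lay 1.57-fold above the average floor of the C3aR-/- arrays. The floor is the lowest level well above background on an array, and some dim probes read above it. Sirpa, a receptor for CD47, rose by 0.35 (SE 0.08, adjusted p = 0.0392), the scavenger receptor gene Stab1 by 0.31 (SE 0.08, adjusted p = 0.0485) and Lgmn, a lysosomal protease that tubule cells also hold, by 0.34 (SE 0.06, adjusted p = 0.0260). Of 18 lysosome genes, 3 rose and 0 fell with a median of 0.16. These were the cathepsin genes Ctsb (0.35), Ctsc (0.31) and Ctsl (0.30), with SEs of 0.06 and adjusted p-values of 0.0202, 0.0253 and 0.0270. Tubule cells hold lysosomes too, and medians of nephron cell markers were also above 0, at 0.15 for 12 proximal tubule, 0.24 for 10 loop of Henle and distal nephron and 0.19 for 7 podocyte markers. Their part in the lysosome values was not tested. Of 14 pan-leukocyte genes 2 passed, both lower. Lcp1, an actin bundler of leukocytes, fell by 0.43 (SE 0.09, adjusted p = 0.0345), with its other probes at -0.77 and -0.78. Arhgdib was at -0.39 (SE 0.07, adjusted p = 0.0200) with another probe at 0.15, so it has no direction.

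Of 6 tested ligands and receptors of the CSF family, 0 passed (0 higher and 3 lower before adjustment at 0.05) and all 6 differences were negative. Il34, the tubular ligand of the CSF1 receptor, read 2.24, 2.11 and 1.53 in WT and 0.92, 0.83 and 1.56 in C3aR-/- arrays. Replicate 3 overlapped with WT, and the difference of -0.86 (SE 0.26) had an adjusted p of 0.0805. Of 5 tested neutrophil granule and receptor genes 0 passed (none in either direction at an unadjusted p under 0.05), with the elastase gene Elane at -0.51 (adjusted p = 0.187). Calls in these lists of pathway genes, with Cd5l counted, were 9 in all (6 higher, 3 lower) and 1 to 6 with any 1 array left out, of which 0 or 1 were higher.

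Markers of other cells in the cortex were read in the same way. B and plasma cell markers fell in 3 of 9 (Jchain by 2.65, Pou2af1 by 1.23 and Mzb1 by 0.69), with mean levels over the list of -1.89 to -1.38 in WT and -2.66 to -2.29 in C3aR-/- arrays. Of 11 T cell markers 0 passed (none in either direction at an unadjusted p under 0.05), with Cd2 at -0.41 (adjusted p = 0.179) and list means of -2.34 to -2.16 in WT and -2.83 to -2.07 in C3aR-/- arrays. Natural killer cell markers fell in 2 of 5 (Klrb1c by 0.91, Klrk1 by 0.44), with list means of -3.26 to -2.98 against -3.75 to -3.42. Of 8 dendritic cell markers, Clec9a fell by 0.73 and Siglech rose by 0.43, with list means of -1.79 to -1.70 against -1.95 to -1.69. Replicate 2 of C3aR-/- was the highest of its genotype in 8 of 11 T cell, 8 of 10 endothelial and 9 of 10 fibroblast and mural cell markers too, so a high replicate 2 was not limited to the myeloid genes. In replicates 1, 2 and 3 the endothelial list mean was 1.42, 1.53 and 1.35 (WT 1.26 to 1.44) and the fibroblast and mural list mean 0.66, 0.93 and 0.49 (WT 0.38 to 1.28). Red blood cell markers had 1 of 4 lower, Slc4a1, which the collecting duct also expresses, and 3 of 4 were highest in replicate 2. Of 10 endothelial markers, Pecam1, Plvap and Tie1 rose (0.51, 0.42 and 0.39) and Kdr fell by 0.53, and of 10 fibroblast and mural markers 0 passed (1 higher and 0 lower before adjustment, limma). Epithelial markers were called mainly higher. In the proximal tubule list 3 of 12 rose (Slc6a19 by 1.12, Slc5a12 by 0.73 and Slc5a2 by 0.34), with list means of 5.24 to 5.36 in WT and 5.55 to 5.57 in C3aR-/- arrays. In the loop of Henle and distal nephron list 3 of 10 rose (Aqp2 by 0.88, Scnn1g by 0.48 and Aqp3 by 0.40) and Slc4a1 fell by 0.51, with list means of 2.31 to 2.36 against 2.49 to 2.62. Of 7 podocyte markers only Wt1 was called, at 0.43, with another probe at -0.02, so it has no direction. The podocyte list means were 0.72 to 0.94 against 1.03 to 1.09. The part of these cells in the myeloid values was not tested.

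**Figure D4:**
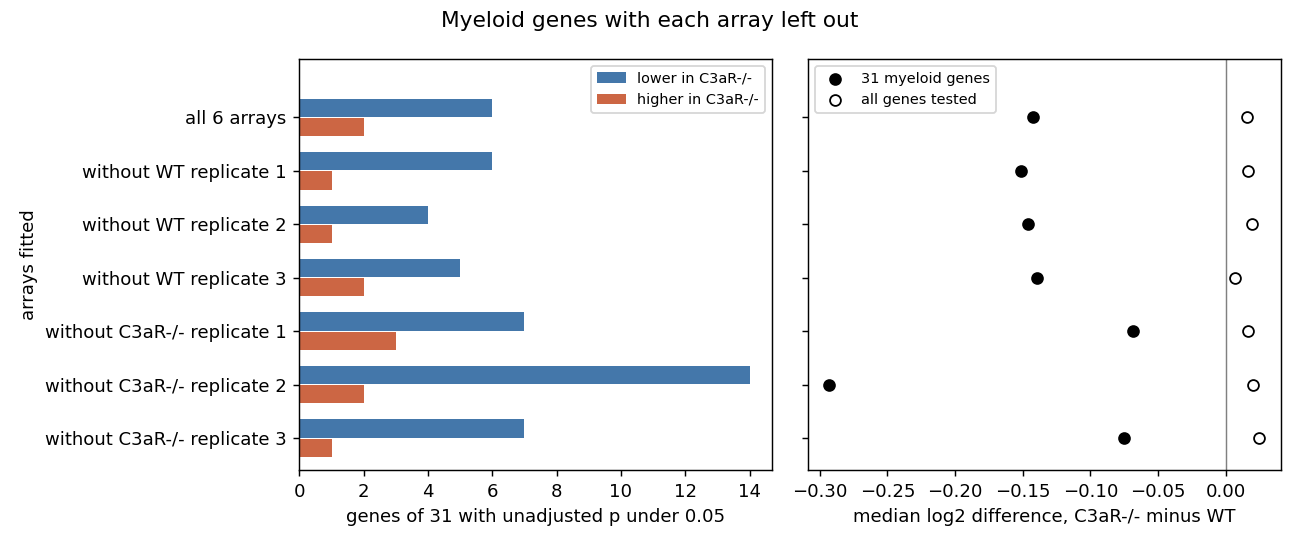
Left, number of the 31 myeloid genes with an unadjusted limma p under 0.05 in each direction, with all 6 arrays and with each array left out. Right, median log2 difference of the same genes and of all genes tested. Without C3aR-/- replicate 2 the count lower in C3aR-/- is 14 and the median -0.29, against 6 and -0.14 with all arrays.

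With each array left out in turn, the calls among the 31 genes changed. Without C3aR-/- replicate 2, Adgre1, Aif1, Cd68 and Ms4a7 were called lower, and 14 of the 31 genes had an unadjusted p under 0.05 in that direction, where 13.2% of all genes did and 3.09% of all genes were called lower. With all arrays it was 6 of the 31 against 15.3% of all genes, a share near the background. Without replicate 1, Cd68 and Itgam were called, and without replicate 3 none (7 lower and 1 higher before adjustment at 0.05). None was called without WT replicate 1 (6 lower and 1 higher unadjusted) or WT replicate 2 (4 and 1), and Cd14 and Ly6g were called without WT replicate 3. On all 6 arrays 6 of the 31 genes (19.4%) were lower in every C3aR-/- array than in any WT array and 2 (6.45%) higher, against 19.1% and 22.2% of all genes (41.3% in either direction).

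PU.1 binds near many myeloid genes, so their promoter windows were searched for its motif. RefSeq windows (GRCm38.p6) of 300 bases, from 250 before to 50 after the start, were found for 25 of the 34 genes, in 30 windows. The PU.1 motif GAGGAAGT, read on both strands, was in 6 of the 30 windows (20.0%; Cd53, Ctss, Fcgr4, Ly6g and S100a8) and in 3.2% of all 32851 windows. A match describes these letters and is not a binding site. Of the 8 genes with the replicate 2 order described above, Cd53 and Ctss carry the motif. The windows of Fcer1g, Laptm5, Lyz1 and Lyz2 do not, and Adgre1 and Tyrobp had no window. In Ly6g and S100a8, which also carry it, C3aR-/- replicate 2 was below the WT range. A link between the motif and the order of arrays was not tested. The windows of Ctss (chr3:95526666-95526815, plus strand), Fcgr4 (chr1:171018806-171018955, plus strand) and Cd53 (chr3:106790120-106790269, minus strand) are printed from 120 bases before to 30 after the start, because these genes had replicate 2 above the WT range and carry the motif near the start. Capitals mark the motif, which lies on the opposite strand in each, and begins 2 bases before the start in Ctss, 24 before it in Fcgr4 and 6 after it in Cd53.
Ctss: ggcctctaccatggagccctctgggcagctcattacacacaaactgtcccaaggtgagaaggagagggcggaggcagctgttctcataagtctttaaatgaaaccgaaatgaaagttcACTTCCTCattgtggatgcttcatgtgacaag
Fcgr4: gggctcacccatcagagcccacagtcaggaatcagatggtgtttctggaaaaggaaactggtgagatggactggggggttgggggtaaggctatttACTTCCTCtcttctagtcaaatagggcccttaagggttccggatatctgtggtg
Cd53: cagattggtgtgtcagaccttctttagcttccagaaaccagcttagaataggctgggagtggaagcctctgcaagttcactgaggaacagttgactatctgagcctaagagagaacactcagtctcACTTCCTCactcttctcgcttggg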

How the data were processed

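Per the file headers, Agilent Feature Extraction 10.7.1.1 gave each spot a background-subtracted intensity, the processed signal, with flags. Per the labels' protocols, 0.2 µg of RNA was amplified and labelled with Cy3. The deposited log2 table, made by the authors from the same arrays, had columns with the same sorted values to within 0.000903 and served as an alternative. How the authors centred it was not given in the sources used here. The log2 processed signal, without control spots and outlier flags, was set against each array's 75th percentile over 59305 spots (661.51 to 826.94). The files give no depth, and 3 arrays a genotype limit the precision. RefSeq (GRCm38.p6) named 32994 of 56605 probes and changed 1535 names. Genotypes were compared with limma 3.58.1 (lmFit, eBayes, two-sided) in R 4.3.3, and the fit was tested on simulated data. Alternatives changed scaling, background, filter, probe choice, replicate block and arrays. Described in full are genes past the threshold, the 12 next by p, and Adgre1, Cd68, Csf1r, Itgam and Ptprc; other lists give up to 4 called genes or the 1 with the smallest p. Genes shown for the order of arrays were chosen after their values were seen. The members and lists were chosen with earlier results of these data known.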

Additional observations from a re-analysis of the deposited data

How the results depend on the processing

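The number of the 31 genes called, 3 as reported, was 5 with normexp, 0 with no filter on dim probes and 0 with the replicate block, and 0 to 4 without 1 array (limma). Before adjustment, at 0.05, 6 were lower and 2 higher with no filter, and 7 lower and 1 higher with the block. Over all genes 2954 were called, and 925 with no filter, 654 with the replicate block and 670 to 1670 without 1 array. Calls in the other myeloid lists, 9 as reported, were 3 in the deposited log2 table, 1 with no filter, 1 with the replicate block and 1 to 6 without 1 array. More genes tested (no filter) and fewer samples or residual degrees of freedom are part of these alternatives. The deviations of arrays with 1 number correlated at 0.0387, -0.0289 and -0.0717 across genes, so the numbers were not taken as pairs. Slide could not be fitted as a block, since each slide holds 1 genotype. The median of the 31 genes kept its sign, at -0.29 to -0.07 without 1 array.

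Under at least 1 of these settings the sign turned for 5 of the 17 genes described in full and for 12 of the other 14. The reported differences of those 12 were at most 0.25 in size. Among the 5, Cd14 was at -0.49 in the deposited log2 table, -0.061 with the mean of its probes and -0.53 by its other probe. Ptprc was at -0.076 with the mean of its probes and at -0.41 and -0.19 by other probes. Cd86 was at 0.12 with the mean and 0.44 by its other probe. Both values involve the Cd86 probe that passed the filter through C3aR-/- alone. Csf1r was at 0.056 without WT replicate 3 (range -0.36 to 0.056 without 1 array). Adgre1 was at 0.12 and 0.20 without C3aR-/- replicates 1 and 3 (range -0.62 to 0.20). The cause was not tested. Readings of single other probes, and the order of the C3aR-/- arrays, were added after the data were seen. Signal over background limits Spi1, Cd163 and Msr1.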
